A study of Homo sapiens with 6 samples.

Results

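Assembled transcripts without a gene name were studied in xenograft tumours of HT-29, an established human colorectal cancer line. An assembled transcript is a model built from the sequencing reads themselves, and in the deposited table each one fills a row whose fields for gene, symbol and position hold only a dash. The 7441 rows described here were those with at least 1 FPKM in 3 or more of the 6 libraries, out of 15031 assembled rows and 131516 transcript rows in all. FPKM is a count of fragments scaled by transcript length and by the number of reads in the library. The identifier of a row has the form MERGE.n.m. Rows that share the first number n were taken as 1 assembled locus, which gave 5179 loci. Because levels chose the rows, the levels below are a description.

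The control group was left untreated and the other received extracorporeal shock waves, pressure pulses applied from outside the body, at 60 mJ. Both groups held 3 HT-29 xenograft tumours with genotype WT at day 15, and the labels give all 6 the same batch. HT-29 is 1 cell line, so the tumours share its genome. The labels do not state whether each tumour grew in its own animal. The p-values therefore cover the variation among these 6 samples, which may be technical. No source used here states how reads from the host were handled.

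Transcript assembly joins overlapping spliced reads into models and keeps those that no annotated transcript explains. Such models are known to include isoforms of annotated genes with other exons or ends, long noncoding RNAs, transcripts that start in repeat elements, and unspliced or read-through RNA. In tumours they are of interest because loss of normal silencing and of accurate splicing can produce transcripts that normal tissue lacks. The kind to which a given row belongs cannot be read from the table, so no role is assigned to any of them here.

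Library totals recovered from the values ran from 48298266 to 58539417 reads. The 8 markers of colon epithelium were all expressed and summed to 4115 to 5231 FPKM in control tumours and 4309 to 5898 FPKM after shock waves. Of the other cell types, the fibroblast list summed to 8.02 to 24.98 FPKM in control tumours and 3.09 to 12.9 FPKM after shock waves. The pericyte and smooth muscle list summed to 2.00 to 3.10 and 2.20 to 3.77 FPKM, the endothelial list to at most 0.693 FPKM and the erythroid list to at most 0.856 FPKM. The leukocyte list was carried by LYZ, lysozyme, at a mean of 1970 FPKM, a gene that epithelial cells also express. Of these lists, COL1A2, KDR and CD3E had no row and did not enter the sums. The lists hold human genes and the handling of host reads is not stated, so low sums do not measure cells of the host. The part of these other cells in the results below was not tested. In bulk tumours, fewer cells of a type and less RNA per cell cannot be told apart.

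Shock wave replicate 3 stood apart from the other 5 libraries. It held 6531 assembled rows at 1 FPKM or more, against 7180 to 7611 in the others, and 802 of the 7441 rows were listed at 0 there, against 324 to 441. The number of assembled rows at 1 FPKM or more was 7551 ± 79.2 for controls and 7090 ± 519.9 after shock waves (SD, n = 3 each). An exact permutation test, two-sided, gave p = 0.2, and p = 0.1 is the lowest that 3 against 3 can reach. The groups overlapped. All assembled rows together held 11.0, 10.7 and 10.6% of the summed FPKM in control tumours and 10.6, 11.4 and 9.75% in shock wave tumours (exact permutation test, two-sided, p = 0.8). Their difference in means was -0.16 percentage points with all 6 libraries and 0.27 without shock wave replicate 3. The 7441 rows alone held 11.2 to 14.1% of the reads of a library.

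The lengths of assembled rows are not listed, but they could be recovered from the values. FPKM times length is a whole number of reads times a factor for the library, so the shortest length that gave whole reads in every library was taken. On 28504 annotated rows of known length this returned that length in 98.0%, a length too short by a factor of 2 in 1.04% and another length in 0.965%. A length was found for all 7441 rows. It ran from 109 to 22854 bases, with a median of 2702 bases and middle values from 1428 to 4611 bases between the lower and upper quartile. Annotated rows that passed the same filter had a median of 1779 bases, those of protein-coding genes 1865 bases and those of annotated long noncoding genes 898 bases. All but 7 of the assembled rows reached 200 bases, the usual lower limit for calling an RNA long, and 210 were over 10000 bases.

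Most of the assembled rows were of low abundance. Their mean level over the 6 libraries had a median of 2.42 FPKM, against 3.16 for annotated rows that passed the same filter, 3.32 for protein-coding and 1.82 for long noncoding ones. A mean of at least 10 FPKM was reached by 10.9% of assembled and 21.5% of annotated rows. Of the 7441 rows, 2830 had at least 1 FPKM in all 6 libraries, 1676 in 5, 1401 in 4 and 1534 in 3. At the edge of the filter, MERGE.9890.1 lay just inside with 1.00003 FPKM as the value that decided its entry and MERGE.2834.1 with 1.00042 FPKM. MERGE.496.17 lay just outside with 0.99999 FPKM and MERGE.2634.1 with 0.99991 FPKM.

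Several of the 8 rows with the highest mean levels differed widely between tumours of the same group, and others were steadier. MERGE.30027.1, of 1097 bases, had the highest mean and measured 895, 1615 and 1279 FPKM in control tumours and 935, 5706 and 894 FPKM after shock waves. Shock wave replicate 2 lay far above the other 5 libraries, among which the groups overlapped. MERGE.16898.1, of 595 bases, measured 1037 and 1540 FPKM in control replicates 1 and 2, was listed at 0 in control replicate 3, and measured 1933, 1255 and 3774 FPKM after shock waves. A single control without the row and 5 libraries at 1037 FPKM or more made up its range. MERGE.12147.5, of 935 bases, measured 469 FPKM in control replicate 1 but 0.0386 and 0.0221 FPKM in replicates 2 and 3, and 566, 481 and 573 FPKM after shock waves. Its groups did not overlap, yet the controls spanned nearly the whole range (limma adjusted p = 0.768). MERGE.5423.13, of 977 bases, measured 23.5, 78.0 and 36.2 FPKM in control tumours and 260, 68.3 and 1670 FPKM after shock waves, with overlapping groups. MERGE.22596.1 measured 334, 10.9 and 283 FPKM in control tumours and 347, 307 and 798 FPKM after shock waves. MERGE.26218.1 was steadier, at 243, 465 and 206 FPKM against 401, 341 and 410 FPKM, and MERGE.24898.1 measured 260, 179 and 225 FPKM against 402, 162 and 280 FPKM. MERGE.5832.1 measured 209, 236 and 76.7 FPKM against 178, 268 and 541 FPKM. The groups of these 4 rows overlapped, and none of the 8 passed the test described below (adjusted p from 0.768 to 0.882).

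**Figure D1:**
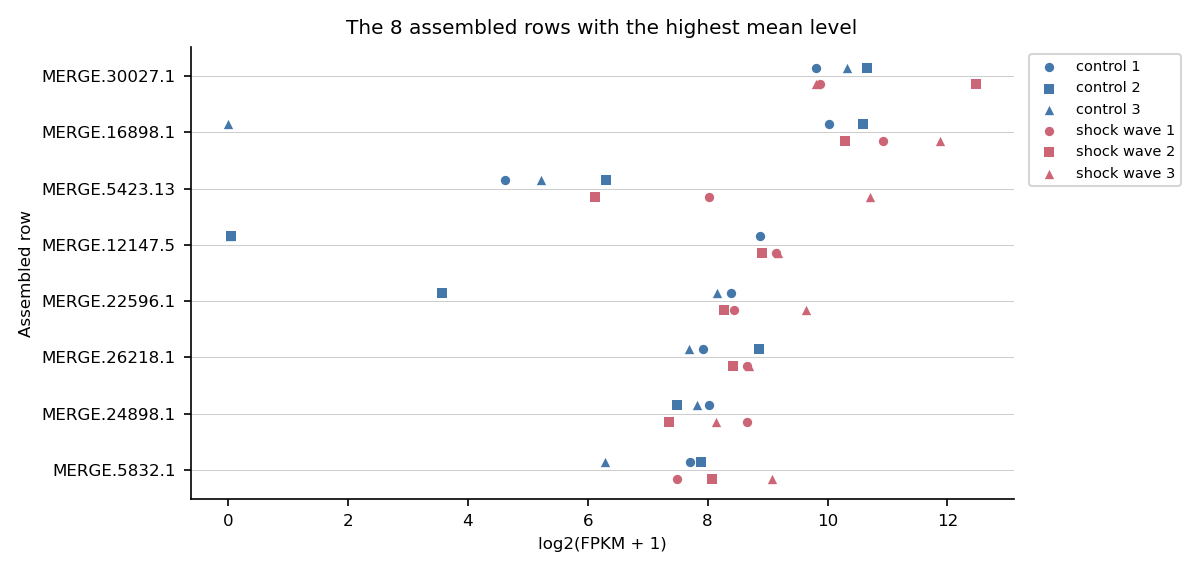
Level of the 8 assembled rows with the highest mean, as log2(FPKM + 1) on the horizontal axis, with 1 point per library (blue, control; red, shock wave). MERGE.16898.1 is at 0 in control replicate 3 and MERGE.12147.5 is near 0 in control replicates 2 and 3, while their other libraries lie at 469 FPKM or more.

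Abundant assembled rows were listed at 0 in a single library of a group more often than abundant annotated rows. Of the rows with at least 10 FPKM in both other libraries of a group, 2.63 to 4.13% were listed at 0 in the remaining library, which was 14 to 25 rows per library. Among annotated rows the same share was 0.392 to 1.05% per library. Of 89 assembled rows with a mean of at least 50 FPKM, 12 were at 0 in at least 1 library, and of 1198 annotated rows of that level, 31 were. Summed per gene, 1 of 1480 annotated genes of that level was at 0 in at least 1 library. A row listed at 0 therefore need not mean that its gene or locus was absent. The within-group SD on the log2(FPKM + 1) scale had a median of 0.53 in assembled and 0.42 in annotated rows. Since abundant annotated rows were also listed at 0, a 0 is given below as listed. Log2 changes of rows with a 0 are differences on the log2(FPKM + 1) scale, which depend on the added 1, and are not folds.

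The comparison between groups asked which transcripts differed in abundance after shock waves. Among the assembled rows 7 were higher and 12 lower in shock wave tumours at an adjusted p under 0.05. Over all 35958 transcript rows tested, 0.0640% were called higher and 0.120% lower, so the assembled shares of 0.0941 and 0.161% lay near that background. The test was limma on log2(FPKM + 1) with Benjamini-Hochberg adjustment over all rows, a scale that understates the change of low rows. In all 19 called rows the groups did not overlap. Of all 7441 assembled rows, 410 lay above all 3 controls in each of the shock wave tumours (5.51%, where all rows gave 6.59%) and 644 lay lower (8.65%, where all rows gave 7.61%). Their median log2 change was -0.08, against -0.02 in annotated rows, and 12.8% of assembled and 9.18% of annotated rows changed by more than 1 on the log2 scale in either direction.

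**Figure D2:**
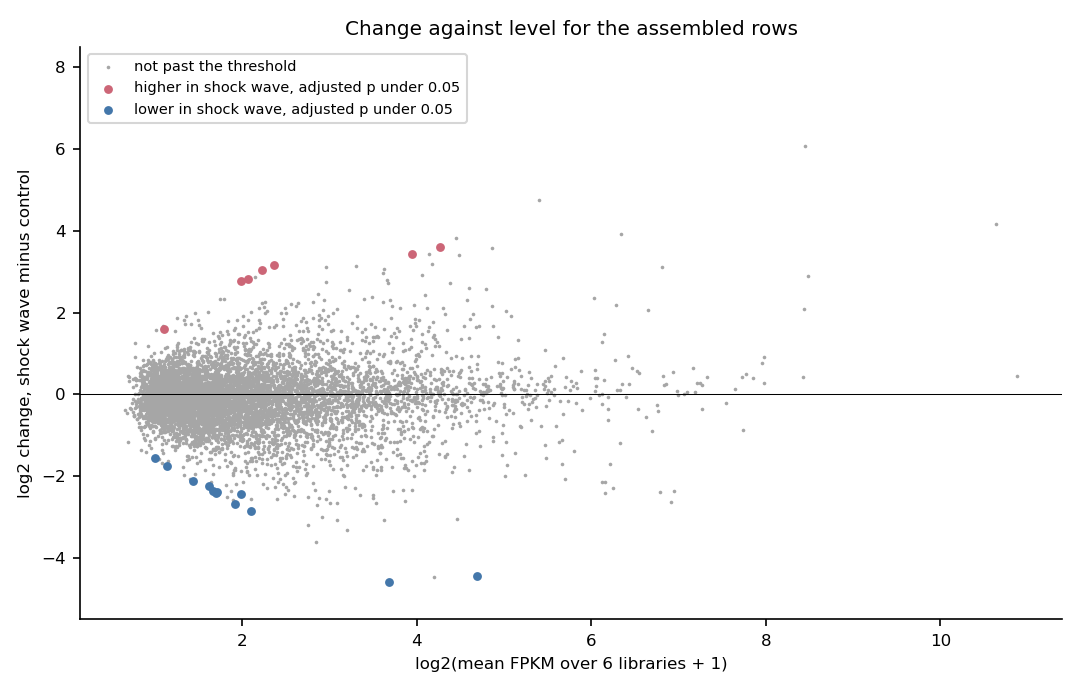
Log2 change on the log2(FPKM + 1) scale, shock wave minus control, against the log2 mean level over the 6 libraries for each of the 7441 assembled rows. Coloured points are the 7 higher and 12 lower rows past the adjusted p of 0.05. Some grey points with changes as large or larger, such as MERGE.12147.5 at 6.09, did not pass.

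Of the 19 called rows, 16 reached 1 FPKM in every library of 1 group and in no library of the other. Such rows passed the filter through 1 group alone and had to differ, so their number and their p-values, given below, support nothing about an effect. In all, 59 assembled rows passed through the shock wave tumours alone and 119 through the controls alone, or 0.793 and 1.60% of the rows. The corresponding shares of annotated rows were 0.715 and 1.35%.

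Among the rows that rose, MERGE.19258.4 and MERGE.17304.1 were present in both groups. MERGE.19258.4, of 7597 bases, measured 1.81, 1.26 and 2.82 FPKM in control tumours and 34.1, 36.2 and 33.3 FPKM after shock waves, or 530 to 1036 reads against 14298 to 15185. Every shock wave tumour lay far above every control and the 3 shock wave values were close together. Its means were 1.96 ± 0.794 and 34.5 ± 1.51 FPKM (SD, n = 3 each), and the log2 difference was 3.62 (SE 0.25, limma adjusted p = 0.0218). MERGE.17304.1, of 5466 bases, measured 1.25, 1.02 and 2.76 FPKM in control tumours and 29.9, 31.9 and 20.1 FPKM after shock waves. Its means were 1.68 ± 0.946 and 27.3 ± 6.33 FPKM (SD, n = 3 each), a log2 change of 3.43 (SE 0.33, adjusted p = 0.0376), again with no overlap. Each was the 1 assembled row that the table lists for its locus.

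The other 5 rows that rose were listed at 0 or at up to 0.135 FPKM in controls. MERGE.29929.4, of 2439 bases, was listed at 0 in all 3 controls and measured 6.69, 5.83 and 9.52 FPKM after shock waves, where it held 901, 786 and 1359 reads (adjusted p = 0.0254). MERGE.30948.3, of 549 bases, was listed at 0 in the controls and measured 7.69, 11.4 and 5.82 FPKM (adjusted p = 0.0353). MERGE.23456.4, of 1260 bases, was listed at 0 in the controls and measured 5.28, 6.94 and 5.50 FPKM (adjusted p = 0.0254). These 3 rows held 187 to 1359 reads per library after shock waves. MERGE.15787.4, of 1322 bases, was also listed at 0 in the controls and measured 9.57, 4.89 and 4.66 FPKM (adjusted p = 0.0497). MERGE.22961.6, of 3529 bases, measured 0.0163, 0.0306 and 0.135 FPKM in control tumours and 2.20, 2.23 and 2.28 FPKM after shock waves, the narrowest spread among the shock wave values of the 7 (adjusted p = 0.0497). The next row by p, MERGE.24648.6, did not pass (adjusted p = 0.0527) and measured 0, 0.0508 and 0 FPKM in control tumours and 2.29, 2.60 and 1.82 FPKM after shock waves.

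Among the rows that fell, MERGE.26697.14 and MERGE.19028.3 were the most abundant in controls. MERGE.26697.14, of 3091 bases, measured 27.6, 23.0 and 20.3 FPKM in control tumours and 0.0469, 0 and 0.00553 FPKM after shock waves. In reads this was 4453, 3937 and 3031 against 8, 0 and 1, so the row was almost lost from all 3 shock wave tumours. Its log2 change was -4.59 (SE 0.22, adjusted p = 0.00843), the lowest adjusted p of any assembled row, but the row passed the filter through the controls alone. MERGE.19028.3, of 2139 bases, measured 24.3, 61.8 and 59.4 FPKM in control tumours and 1.09, 1.29 and 0.974 FPKM after shock waves. It stayed detectable in every shock wave tumour and the groups lay far apart, at 48.5 ± 21.0 and 1.12 ± 0.158 FPKM (SD, n = 3 each), a log2 change of -4.44 (SE 0.39, adjusted p = 0.0318).

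Less abundant in controls were the remaining rows that fell. MERGE.2497.13, of 7998 bases, measured 4.23, 4.83 and 4.35 FPKM in control tumours and 0.00906, 0.0113 and 0.0790 FPKM after shock waves (adjusted p = 0.0254). MERGE.28249.1, of 1205 bases, measured 5.25, 6.72 and 4.76 FPKM in control tumours and 0.0451, 0 and 0 FPKM after shock waves (adjusted p = 0.0254). MERGE.10877.5, of 5120 bases, measured 5.05, 5.44 and 6.67 FPKM in control tumours and 0.216, 0.477 and 0.0400 FPKM after shock waves (adjusted p = 0.0419). Each of these 3 was steady among controls and under 0.5 FPKM in every shock wave tumour. MERGE.19933.6, of 4745 bases, measured 3.83, 4.23 and 4.21 FPKM in control tumours and 0.248 FPKM in shock wave replicate 2, and was listed at 0 in the other 2 shock wave tumours (adjusted p = 0.0376). MERGE.24648.3, of 1805 bases, measured 3.50, 3.94 and 2.76 FPKM in control tumours and was listed at 0 in all 3 shock wave tumours (adjusted p = 0.0376). MERGE.10483.2, of 1757 bases, measured 2.47, 2.24 and 2.51 FPKM in control tumours and 0.0309, 0 and 0 FPKM after shock waves (adjusted p = 0.0378). The remaining 4 lower rows, MERGE.18748.3, MERGE.5350.4, MERGE.10161.4 and MERGE.24648.8, lay between 1.85 and 9.47 FPKM in control tumours and at or under 0.0670 FPKM after shock waves, with adjusted p from 0.0447 to 0.0488. They are named after their values were seen.

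**Figure D3:**
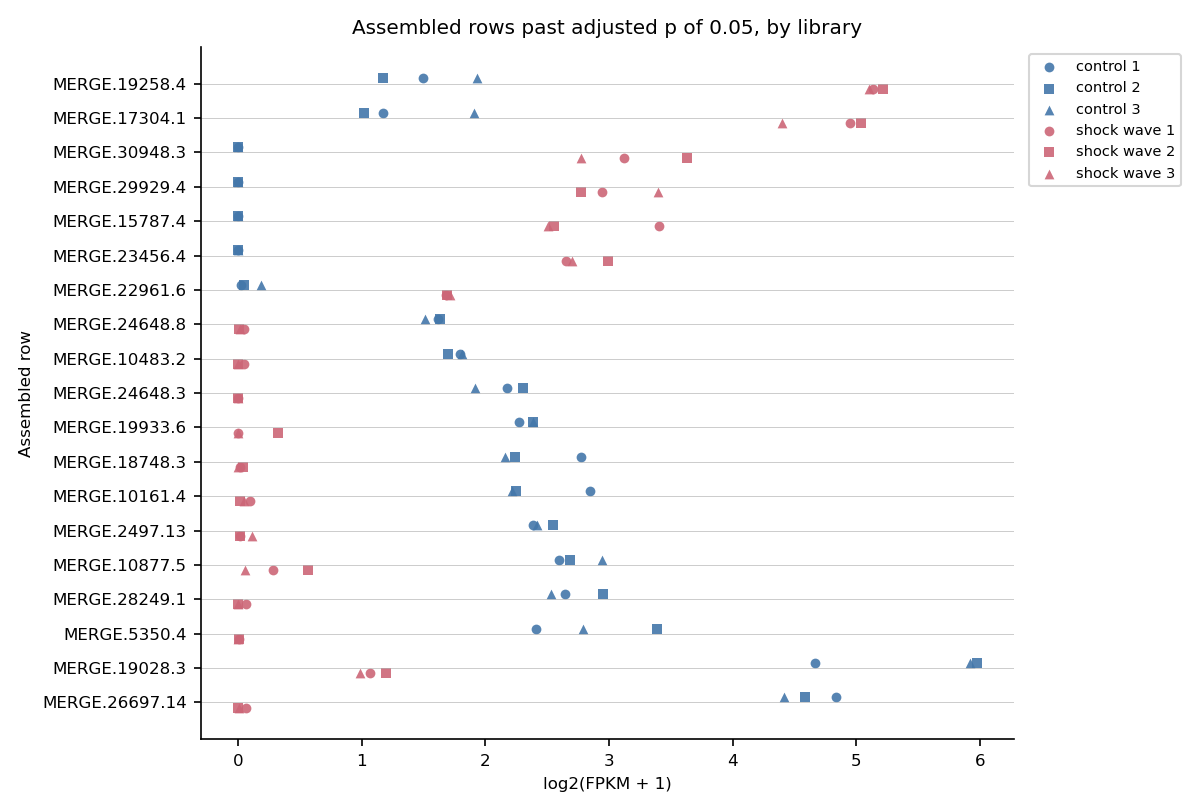
Level of the 19 called assembled rows as log2(FPKM + 1), with 1 point per library (blue, control; red, shock wave), ordered by log2 change. The groups do not overlap in any row, and 16 of the rows stay at or under 0.477 FPKM throughout 1 of the groups, the exceptions being MERGE.19258.4, MERGE.17304.1 and MERGE.19028.3.

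These calls rested on all 6 libraries. Without control replicate 1 there were 2 rows higher and 1 lower, without control replicate 2 or control replicate 3 there were 0 (426 and 416 rows at an unadjusted limma p under 0.05), without shock wave replicate 1 there were 0 and 1, without shock wave replicate 2 there were 0 and 4, and without shock wave replicate 3 there were 0 and 1. Of these, the 2 higher rows and 3 of the 4 lower rows without shock wave replicate 2 were not among the 19. Limma voom on the recovered reads called 0 rows in either direction, with 431 of 8452 assembled rows at an unadjusted p under 0.05, against 515 of 7441 in the fit on FPKM (6.92%, where all rows gave 6.40%), and quantile normalization called 9 higher and 10 lower.

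Summed per locus over the rows past the filter, 4 assembled loci were higher and 4 lower in shock wave tumours. Annotated genes were summed over all of their rows, so the shares in this paragraph compare unlike sums. With all assembled rows summed, as for genes, 1 locus was called higher and 1 lower. In that fit 430 of 5343 assembled loci were at an unadjusted limma p under 0.05. Over all 18630 genes and assembled loci tested together, 0.0215% were called higher and 0.0215% lower, against 0.0772% each of the 5179 assembled loci, and 0 of the 13451 annotated genes among them were called, with 800 of those at an unadjusted limma p under 0.05. The share of assembled loci at an unadjusted p under 0.05 was 8.15%, against 6.56% of all genes and loci. Groups that did not overlap were found in 295 loci higher (5.70%, all genes and loci 7.18%) and 451 lower (8.71%, all genes and loci 8.68%). The higher loci were MERGE.19258, MERGE.29929, MERGE.30948 and MERGE.17304, and the lower loci MERGE.2497, MERGE.28249, MERGE.19933 and MERGE.10483, with limma adjusted p from 0.0270 to 0.0477. All 8 had a single row past the filter, so their values are those of the rows above. Of the 8, 6 passed the filter through 1 group alone and had to differ, so the count is no sign that assembled loci changed more often than annotated genes. Of the next loci by p, MERGE.14165 measured 0.0395, 0.00928 and 0.00356 FPKM in control tumours and 1.98, 3.36 and 2.92 FPKM after shock waves and did not pass (adjusted p = 0.0763). MERGE.26022 measured 2.16, 2.46 and 2.50 FPKM against 0.0405, 0.213 and 0 FPKM, and MERGE.5350 and MERGE.15787 had the values of their 1 row each (adjusted p = 0.0717 for each of the 3).

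Rows below the filter changed the picture at 3 of the 8 loci. When all assembled rows of MERGE.19933 were summed, the locus measured 4.21, 4.53 and 5.06 FPKM in control tumours and 2.09, 8.19 and 2.26 FPKM after shock waves, and the groups overlapped (log2 change -0.31, limma adjusted p = 0.825). MERGE.2497 then measured 3.96 FPKM in shock wave replicate 2, near the 4.23 to 4.83 FPKM of the controls, and stayed under 0.08 FPKM in the other shock wave tumours (adjusted p = 0.692). MERGE.29929 then measured 2.54 FPKM in control replicate 2 and 6.04 to 10.7 FPKM after shock waves (adjusted p = 0.608). The other 5 loci have 1 assembled row each and kept their values. In the fit with those sums MERGE.30948, MERGE.17304 and MERGE.10483 nevertheless missed the threshold (adjusted p = 0.0699, 0.0752 and 0.0752). With all assembled rows summed, 1 locus was called higher, MERGE.19258, and 1 lower, MERGE.28249.

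Leaving out a library lost most locus calls as well. Without control replicate 3 there were 2 loci higher, 1 of them among the 8, and 0 lower. Without shock wave replicate 2 there were 0 higher and 2 lower, with 0 of these among the 8, and without any of the other 4 libraries 0 were called, where 342 to 475 assembled loci were at an unadjusted limma p under 0.05. Limma voom on recovered reads called 4 loci higher and 5 lower, of which 3 and 0 were among the 8.

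Among the 19 called rows, 9 lay in 8 loci with further rows past the filter. The sum of those other rows is given here for MERGE.26697 and MERGE.19028. At locus MERGE.26697 the other 3 rows together measured 31.7, 15.3 and 17.3 FPKM in control tumours and 28.2, 33.2 and 14.0 FPKM after shock waves, overlapping groups. The whole locus measured 59.3, 38.3 and 37.6 FPKM against 28.3, 33.2 and 14.0 FPKM, with separate groups (limma adjusted p = 0.694). At locus MERGE.19028 the other 2 rows measured 72.2, 24.0 and 23.8 FPKM in control tumours and 102, 57.4 and 70.9 FPKM after shock waves. The locus as a whole measured 96.6, 85.8 and 83.2 FPKM against 103, 58.7 and 71.9 FPKM, with overlapping groups (limma adjusted p = 0.755). In all 9 cases the summed level of the other rows overlapped between the groups, which does not show that those rows were unchanged. With the called row included, MERGE.10161, MERGE.10877, MERGE.18748 and MERGE.23456 also had separate groups in the direction of that row. None of them passed (limma adjusted p from 0.174 to 0.694). MERGE.10161 measured 9.26, 9.42 and 5.64 FPKM in control tumours and 3.32, 0.053 and 0.034 FPKM after shock waves. MERGE.22961 and MERGE.24648 had overlapping groups.

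The 1410 loci with 2 or more assembled rows past the filter allowed a test of whether rows of a locus moved by different amounts. The leading row held a median of 59.6% of the level of such a locus. The diffSplice F-test of limma called 11 of these loci, or 0.780%, where 1.22% of all 7891 genes and loci with several rows were called. That test shares 1 estimate of spread over the rows of a locus. On simulated data whose rows differed in spread it made far more false calls than its threshold allows, so neither the 11 calls nor its p-values can be taken at face value. With a spread of its own for each row, a setting chosen after seeing the data, limma called 0 of the 1410 loci and 0.0507% of all 7891. At an unadjusted p under 0.05 it had 102 of the 1410 (7.23%), where all gave 5.92%. The loci below are therefore given as values.

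At locus MERGE.10877 the controls and the shock wave tumours had different leading rows. MERGE.10877.5 fell as described, and MERGE.10877.1, of 7004 bases, measured 0, 0.298 and 0 FPKM in control tumours and 7.09, 4.67 and 2.68 FPKM after shock waves (limma adjusted p = 0.112). The locus summed to 10.1, 9.96 and 10.9 FPKM in control tumours and 9.80, 7.83 and 3.96 FPKM after shock waves, all below the controls (adjusted p = 0.694). Its adjusted usage p with a spread per row was 0.0899. At locus MERGE.30329, MERGE.30329.4 of 3061 bases measured 8.45, 9.76 and 6.89 FPKM in control tumours and 0.716, 1.87 and 0 FPKM after shock waves, while MERGE.30329.2 of 3334 bases measured 4.58, 4.09 and 4.93 FPKM against 16.8, 16.4 and 25.4 FPKM. Neither row passed alone (adjusted p = 0.196 and 0.0756) and both had separate groups in opposite directions. The locus summed to 15.01, 16.9 and 13.6 FPKM against 18.02, 18.8 and 25.4 FPKM (adjusted p = 0.694), and its adjusted usage p with a spread per row was 0.187.

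Locus MERGE.24648 had 4 rows past the filter. MERGE.24648.3 and MERGE.24648.8 fell, and MERGE.24648.6 was at or under 0.0508 FPKM in control tumours and at 1.82 to 2.60 FPKM after shock waves. The sum of the 4 rows was 6.54, 7.51 and 4.63 FPKM in control tumours and 5.62, 2.61 and 9.63 FPKM after shock waves, with overlapping groups. At locus MERGE.9237 the row with the highest mean, MERGE.9237.11 of 2654 bases, measured 13.5, 13.0 and 15.2 FPKM in control tumours and 14.8, 8.33 and 19.3 FPKM after shock waves. The rows MERGE.9237.14 and MERGE.9237.13 measured 0.520 to 0.825 FPKM in control tumours and 2.81 to 11.2 FPKM after shock waves, and neither passed (adjusted p = 0.317 and 0.349). The locus summed to 19.7, 17.8 and 21.1 FPKM against 37.9, 38.7 and 31.3 FPKM, with separate groups (limma adjusted p = 0.313). At locus MERGE.16900, MERGE.16900.2 of 13029 bases measured 0.415, 1.53 and 0.262 FPKM in control tumours and 6.55, 4.94 and 4.55 FPKM after shock waves (adjusted p = 0.215). MERGE.16900.1 and MERGE.16900.5 had means of 1.53 and 1.65 FPKM in control tumours and 0.859 and 0.711 FPKM after shock waves, with overlapping groups. The locus summed to 3.01, 5.61 and 3.12 FPKM against 7.44, 7.01 and 6.30 FPKM, with separate groups (limma adjusted p = 0.694). Adjusted usage p with a spread per row was 0.232 at MERGE.19028, 0.251 at MERGE.24648, 0.658 at MERGE.9237 and 0.295 at MERGE.16900.

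**Figure D4:**
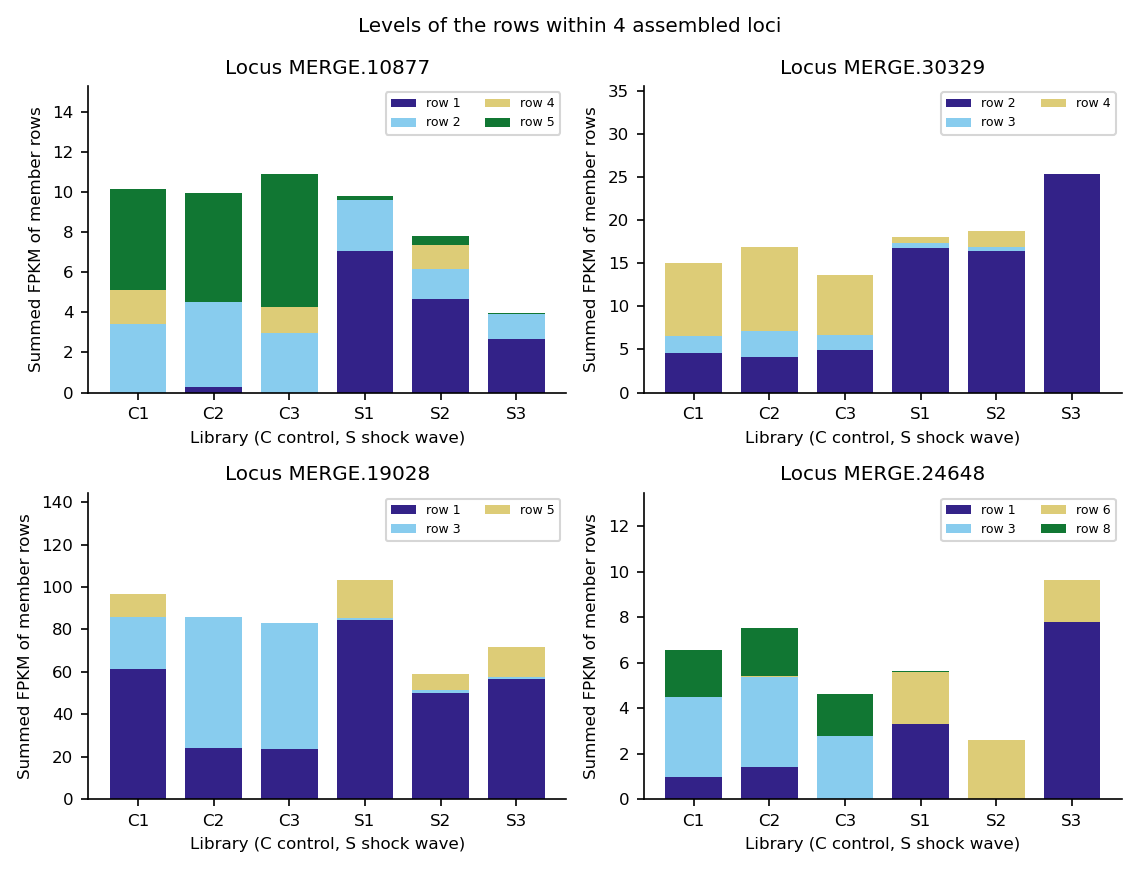
Stacked FPKM of the assembled rows at 4 loci in each library (C, control; S, shock wave), with 1 colour per row named by its last number. At MERGE.10877 row 5 leads in controls and row 1 in shock wave tumours, and at MERGE.30329 row 4 is larger in controls and row 2 in shock wave tumours, while the totals of MERGE.19028 and MERGE.24648 overlap between the groups.

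Some rows were on in 1 group and off in the other. On was taken as at least 1 FPKM in all 3 libraries and off as at most 0.1 FPKM in all 3, and the counts are a description. There were 13 such rows in shock wave tumours, or 0.175% of the assembled rows against 0.105% of annotated rows, and 28 in controls, or 0.376% against 0.165%. Besides rows already named, MERGE.1989.1, of 368 bases, was listed at 0 in controls and measured 3.35, 6.59 and 10.6 FPKM after shock waves (limma adjusted p = 0.0948). MERGE.6195.3, of 2005 bases, was listed at 0 in controls and measured 2.95, 2.26 and 8.997 FPKM (adjusted p = 0.271). In the other direction, MERGE.1994.3, of 1146 bases, measured 6.94, 15.3 and 81.8 FPKM in control tumours and was listed at 0 in all shock wave tumours (adjusted p = 0.250). MERGE.30183.3, of 2855 bases, measured 21.2, 7.75 and 8.41 FPKM in control tumours and was listed at 0 in all shock wave tumours (adjusted p = 0.0517). MERGE.2857.1 measured 3.93, 24.8 and 5.65 FPKM in control tumours and at most 0.0314 FPKM after shock waves, and MERGE.11169.40 measured 2.49, 2.75 and 14.5 FPKM in control tumours and 0 in shock wave tumours. All 6 had separate groups, with a wide spread in the group that was on, and none passed.

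The change between groups varied with the length of the row. For the 1860 shortest rows, of 109 to 1427 bases, the median log2 change was 0.06, and for the 1861 longest, of 4611 to 22854 bases, it was -0.27. Without shock wave replicate 3 these medians were 0.05 and -0.08. Annotated rows in the same length ranges had medians of 0.03 and -0.20, or 0.03 and -0.09 without that library. In shock wave replicate 3 the longest assembled rows had a median deviation of -0.48 from the row mean on the log2 scale, against 0.07 to 0.20 in the other 5 libraries. Per doubling of length, the log2 deviation of assembled rows from the row mean changed by -0.16 in shock wave replicate 3. This deviation changed by -0.02 in shock wave replicate 1, by 0.03 in shock wave replicate 2 and by 0.03 to 0.07 in the controls (exact permutation test between the groups, two-sided, p = 0.1, the lowest it can reach). Because the row mean is taken over all libraries, a low slope in 1 library raises the slopes of the others. With this trend removed in each library, a setting chosen after seeing the data, 8 assembled rows were called higher and 8 lower, of which 5 and 8 were among the 19.

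**Figure D5:**
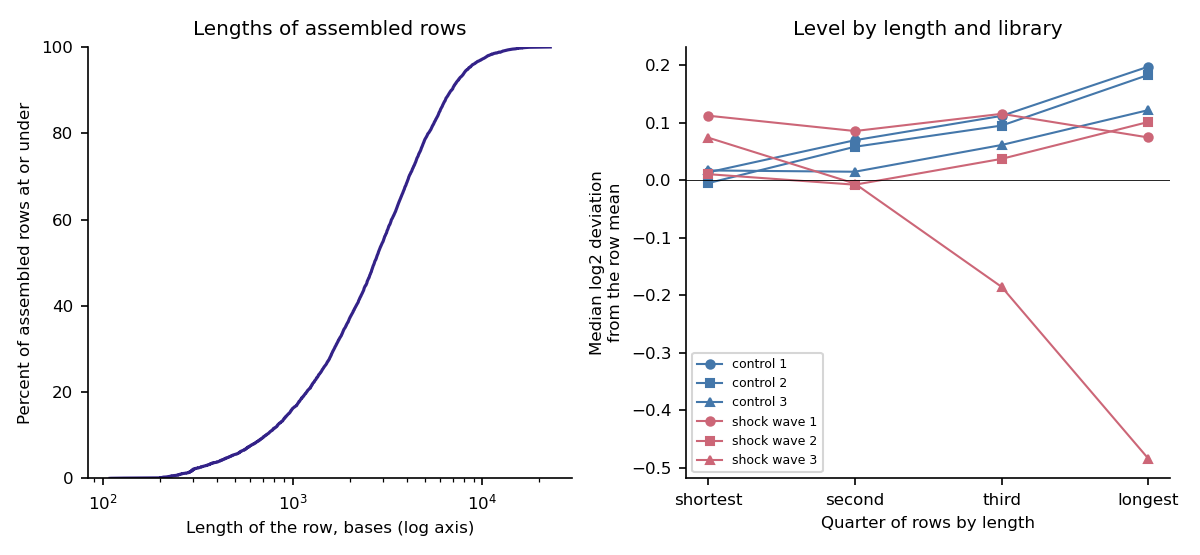
Left, percent of the 7441 assembled rows at or under a given length, on a log axis. Right, median log2 deviation from the row mean in each library for rows grouped by length into 4 equal parts, from shortest to longest (blue, control; red, shock wave), where shock wave replicate 3 falls to -0.48 in the longest rows and the other 5 libraries stay between 0.07 and 0.20.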

How the data were processed

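The authors deposited 1 table of expression per transcript with no named unit. The deposited values were taken as FPKM because FPKM times transcript length in GENCODE release 29 gave whole reads, within 0.05 of a whole number, for 99.6 to 99.7% of values worth 0.5 to 100 reads. Per the submitters' processing notes the genome build was hg38. Per the labels' protocols, total RNA went into a SMARTER mRNA-seq kit. No source used here names the aligner, the assembler or the quantifier. Annotated rows and assembled rows together accounted for 98.7 to 99.5% of the recovered totals.

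Rows with at least 1 FPKM in 3 of 6 samples entered limma 3.58.1 (R 4.3.3) on log2(FPKM + 1). The fit let variance follow the mean, had no covariate and was adjusted over all rows. Loci, as sums of their rows past the filter, and annotated genes, as sums of all their rows, were fitted together. Per-library values were compared with exact permutation tests over 20 arrangements (scipy 1.17.1). The fits were tested on simulated data, where diffSplice made too many false calls and the row fit and the usage test with a spread per row stayed near their threshold. The simulation drew independent normal noise for each row, and took the spread estimated from the 6 samples of that row as true. Part of the simulated difference in spread between rows was therefore error of estimation, so the rate of false diffSplice calls may not carry over to the data. The simulation did not reproduce rows missing from single libraries or reads shared between rows, so it does not vouch for the fits there. How reads shared by similar rows were divided is not given, so levels of rows of 1 locus are uncertain, and strand and overlap of a row are not known. The rows and lists were chosen with earlier results of these data known. Rows named are those with the smallest p and separate groups (8 rows and 6 loci per direction), the highest levels, the most rows per locus, the smallest usage p and the off rows of 1 group. Removal of the length trend and a usage test with a spread per row were added after seeing the data. The labels name no pairing of same-numbered replicates.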

Additional observations from a re-analysis of the deposited data

How the results depend on the processing

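With all 6 libraries, 7 assembled rows were called higher and 12 lower, and 4 loci higher and 4 lower. The counts of rows higher and lower were 0 and 1 with a 2-fold threshold, 2 and 2 with a filter of 5 FPKM, 0 and 1 with no filter, 5 and 5 with a pseudocount of 0.1, and 0 and 0 with limma voom. The counts of loci higher and lower were 0 and 0 with a 2-fold threshold, 1 and 0 with a filter of 5 FPKM, 0 and 0 with no filter, 1 and 1 with all assembled rows of the locus, and 2 and 3 with scaling to the same sum. Leaving out a replicate gave 0 to 2 rows higher, 0 to 4 rows lower, 0 to 2 loci higher and 0 to 2 loci lower. No trend, quantile normalization and upper-quartile scaling kept each count within 1.5 times, quantile normalization with 5 loci higher and 3 lower. Where counts fell with fewer samples or rows tested, the construction of the alternative includes that loss, and elsewhere the cause was not tested.

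With the replicate number as a block, 0 rows and 0 loci were called higher and 0 rows and 0 loci lower, with 515 rows and 462 loci at an unadjusted p under 0.05. Same-numbered samples hardly deviated together, with correlations over all rows of 0.011, 0.011 and 0.017. Over the assembled rows past the filter they were -0.011, -0.007 and -0.029. Over all rows, 3 of 3 controls and 3 of 3 shock wave samples correlated best with their own number. Both counts come from the same correlations of deviations from group means, so they are not independent. With so few samples these correlations cannot decide whether the numbers are a pairing. The 11 diffSplice calls became 0 with a spread of its own per row and 8 to 25 with a replicate left out. The difference in the share of summed FPKM was -0.16 percentage points and turned to 0.19 with only rows past the filter; leaving out a replicate gave -0.56 to 0.27. The difference in assembled rows at 1 FPKM or more was -461, and leaving out a replicate gave -695 to -181. Over 32 named rows and loci there were 548 comparisons of a row or locus with an alternative setting. Of these, 236 stayed on the same side of the threshold, 306 were lost, 6 were gained and 0 were reversed. The 236 include rows and loci that had not passed and stayed so, such as MERGE.14165 and MERGE.26022 in 18 of 18 alternatives each. All 306 losses came from called rows and loci. MERGE.26697.14 was called in 12 of 17 alternatives, with limma adjusted p from 0.00643 to 0.782. It passed the filter through the controls alone, so these calls support nothing about an effect. Depth limits short rows near 1 FPKM: MERGE.9890.1, of 865 bases, rests on 17 to 66 reads per library.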

Other observations

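The loci with the most assembled rows did not pass the test of their summed level. MERGE.28690, with 15 rows past the filter, measured 25.3, 28.4 and 28.7 FPKM in control tumours and 32.4, 24.0 and 19.7 FPKM after shock waves. MERGE.26934, with 14 rows, measured 80.7, 60.5 and 75.1 FPKM against 65.3, 64.9 and 74.3 FPKM, and MERGE.10933, with 12 rows, 28.4, 25.7 and 23.6 FPKM against 32.2, 19.5 and 14.3 FPKM. In these 3 loci the groups overlapped. MERGE.7570, with 15 rows, measured 116, 108 and 92.7 FPKM in control tumours and 125, 177 and 217 FPKM after shock waves, with separate groups, and did not pass (log2 change 0.68, SE 0.22, limma adjusted p = 0.694).

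The numbering of assembled rows had gaps. Of 9271 assembled loci, 4541 (49.0%) lacked at least 1 number between 1 and their highest row number among the assembled rows of the table. MERGE.19258, whose 1 row is numbered 4, and MERGE.30948, whose 1 row is numbered 3, are among them. What the missing numbers stood for was not analysed here.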
